A study of Mus musculus with 2 samples.

Results

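The fragments described here are the reads of nuclear ribosomal RNA (rRNA) in 2 small RNA libraries of mouse embryonic stem cells. A fragment, or tag, is a distinct read sequence with its read count. A tag was taken as a member when it matched no miRNA hairpin and matched, over its whole length and without a mismatch, a transcript of Gm26917 or Gm42418 in the GENCODE M21 annotation, both of which lie in a ribosomal DNA repeat. This gave 13400 tags of the 1695245 distinct tags in the series (0.790%). The DMSO library held 10447 of them and the PD library 11042, and 8089 were present in both. The 8089 shared tags carried 99.8% of the member reads of either library. No member tag matched a miRNA hairpin, and none matched more than 1 position in the 2 genes.

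Ribosomal RNA genes are transcribed by RNA polymerase I as one long precursor, in which 18S, 5.8S and 28S rRNA are separated and flanked by external and internal transcribed spacers. The spacers are cut away and degraded in the nucleolus and during export, and 18S rRNA remains as the RNA core of the small ribosomal subunit. Because rRNA is the most abundant RNA of a cell, pieces of it are found in most small RNA libraries, whether they were made in the cell or during RNA isolation.

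J1 mouse embryonic stem cells, a feeder-free cultured line kept with leukaemia inhibitory factor, received 1 µM PD0325901 (PD, an inhibitor of the kinase MEK) or DMSO, its solvent, and RNA was taken after 24 h. Each treatment was sequenced as 1 library of RNA pooled from 3 experiments, so there were no replicates, no difference between the libraries could be tested, and intervals given below cover counting error only. The libraries held 18870345 (DMSO) and 20944808 (PD) clean reads of 18 to 44 nt. Levels are reads per 1000000 clean reads (RPM), and ratios are PD over DMSO. A count of 3 reads, the limit below which a level was not read, corresponded to 0.159 RPM in DMSO and 0.143 RPM in PD. The exact mature sequence of miR-294-3p, a miRNA that marks mouse embryonic stem cells, was present at 2791 RPM in DMSO and 2270 RPM in PD.

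Both genes lie on the plus strand of chromosome 17 in GRCm38. Gm26917 (ENSMUSG00000097971.3), annotated as a long noncoding RNA, covers 39843013 to 39846341, and its longer transcript is a single exon of 3329 nt. It ends 11 nt before the 18S rRNA copy of this repeat and so lies where the 5′ external transcribed spacer is expected. Gm42418 (ENSMUSG00000098178.1) covers 39846958 to 39848788 as a single exon of 1831 nt. Its first 1244 nt are identical to nt 606 to 1849 of the 18S copy, which the annotation carries on the opposite strand at 39846353 to 39848201. The last 587 nt of Gm42418 lie past the 3′ end of 18S, in the place of the first internal transcribed spacer. The label rRNA therefore fits 3 stretches of unlike kind, and positions in Gm42418 are given below as nucleotides of 18S, counted from 1 at the first base of this copy. The first 605 nt of 18S belong to neither gene, and 28S rRNA was not analysed here.

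The member reads came from few places. A hot spot was a start position that held at least 1% of the member reads in either library. The 25 hot spots all lay in the 18S stretch of Gm42418, and hot spots no more than 25 nt apart were joined into 6 zones. The sequences of zones 1 to 5 are shown from 1 base before the first hot start to the last hot 3′ end, with the hot start bases in capitals, because the positions are what sets these fragments apart. On chromosome 17 they lie at 39847021 to 39847063, 39847214 to 39847263, 39847315 to 39847339, 39847552 to 39847573 and 39848074 to 39848098.
zone 1, nt 669 to 711: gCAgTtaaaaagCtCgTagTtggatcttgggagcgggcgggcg
zone 2, nt 862 to 911: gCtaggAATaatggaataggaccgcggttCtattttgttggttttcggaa
zone 3, nt 963 to 987: gAgGtgaaattcttggaccggcgca
zone 4, nt 1200 to 1221: tAAaggaattgacggaagggca
zone 5, nt 1722 to 1746: aCCgattggatggtttagtgaggcc

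Next, the same rule was applied to the 3′ ends of the reads. This gave 23 hot ends, of which 18 lay in zones 1 to 5, where they are again in capitals.
zone 1, nt 669 to 711: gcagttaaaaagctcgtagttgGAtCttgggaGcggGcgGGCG
zone 2, nt 862 to 911: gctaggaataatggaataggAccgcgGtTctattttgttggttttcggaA
zone 3, nt 963 to 987: gaggtgaaattcttggaccggcGCA
zone 4, nt 1200 to 1221: taaaggaattgacggaagggcA
zone 5, nt 1722 to 1746: accgattggatggtttagtgaggcC

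In all, 2196821 reads of the DMSO library and 2222429 reads of the PD library were member reads. They made up 11.64% of the DMSO clean reads (11.63% to 11.66%, 95% Wilson interval) and 10.61% of the clean reads in PD (10.60% to 10.62%). The level was 116417 RPM in DMSO and 106109 RPM in PD, a ratio of 0.911 (95% counting interval 0.910 to 0.913). The direction of this ratio depended on the denominator, since it was 1.006 with TMM normalization of edgeR, 1.012 with the size factors of DESeq2, 1.045 per read that matched a miRNA hairpin and 1.104 per clean read of 20 to 24 nt. The size factor of DESeq2 was 1 for both libraries, so its ratio is that of the raw counts. All other ratios below are per clean read, and those between 0.826 and 1 also came out above 1 under at least 1 of these denominators.

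The 3 stretches differed far more in level than the libraries did. Per kilobase, the 18S stretch stood at 92889 RPM in DMSO and 84710 RPM in PD. The stretch after 18S stood at 609 RPM per kilobase in DMSO and 431 in PD, and Gm26917 at 152 in DMSO and 143 in PD. The 18S stretch thus carried 99.3% of the member reads in both libraries. Its ratio was 0.912, that of Gm26917 was 0.943 (0.917 to 0.970), and that of the stretch after 18S was 0.708 (0.683 to 0.734).

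**Figure D1:**
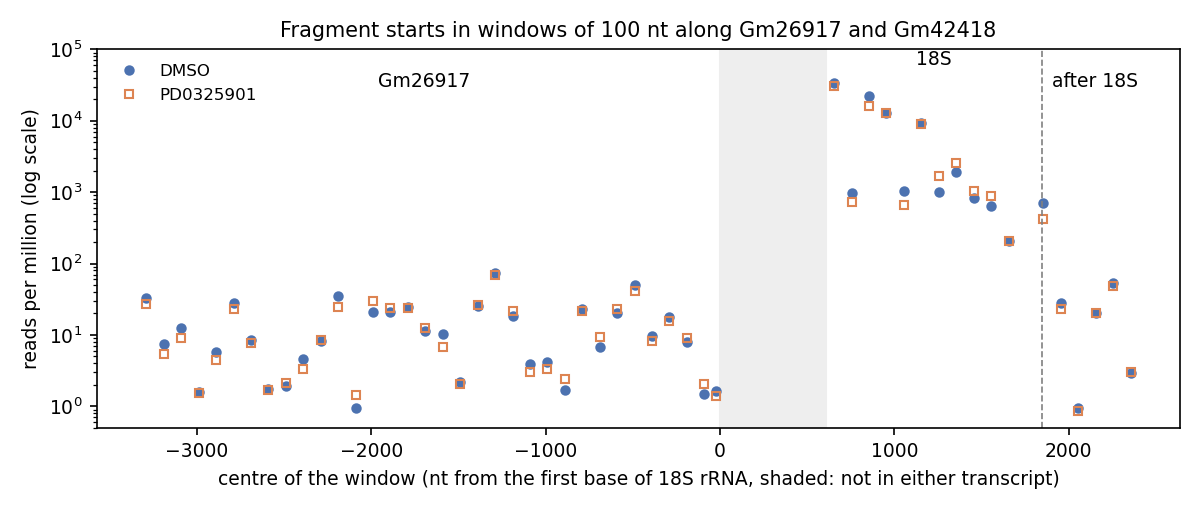
RPM by start position in windows of 100 nt along Gm26917 and Gm42418, on a log scale, with 1 point per window and library (windows with no read in DMSO and 1 window of the 18S stretch are not drawn). All windows of Gm26917, the highest at 74.5 RPM in DMSO, and those wholly beyond the end of 18S lie orders of magnitude below the highest window drawn in the 18S stretch, at 33598 RPM in DMSO.

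Within the 18S stretch, the 25 hot spots took 64.4% of the member reads in DMSO and 62.2% in PD. In either library 14 start positions were enough for 50% of the member reads, of 2145 positions used in DMSO and 2176 in PD. The 6 zones, spanning 87 start positions or 1.69% of the length of both genes, held 73.9% of the reads in DMSO and 71.7% in PD. Just inside the threshold were starts 671 (1.03% in the library where it was higher) and 966 (1.019%), and just outside it were starts 1195 (0.991%) and 684 (0.979%).

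**Figure D2:**
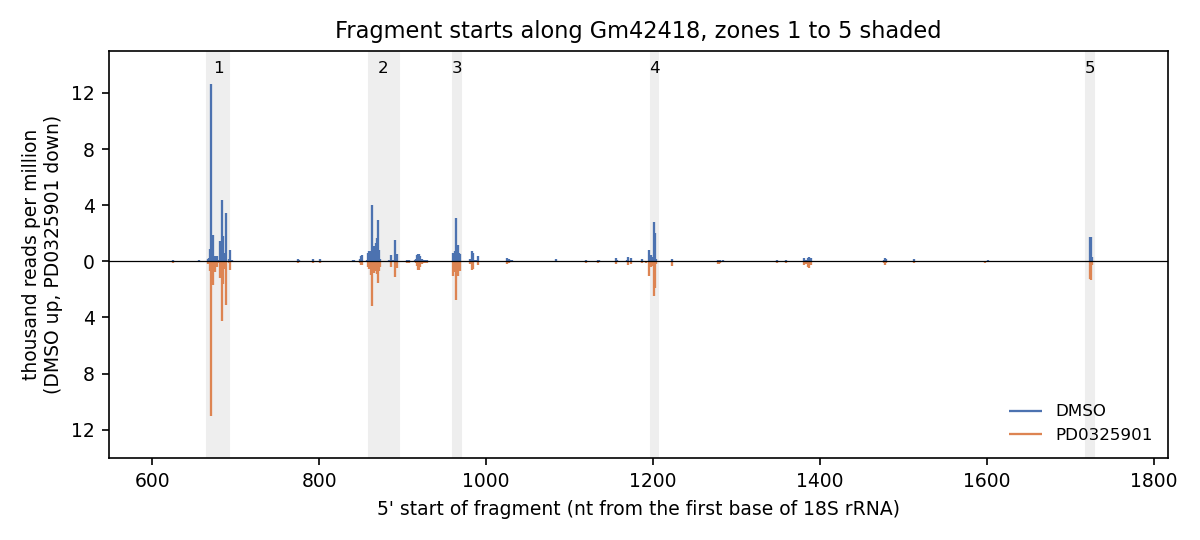
RPM by start position along Gm42418, up to the last start before the sixth zone, with DMSO drawn upwards and PD downwards and zones 1 to 5 shaded. The same positions stand out in both libraries, the highest being start 670 at 12613 RPM in DMSO and 11053 RPM in PD.

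The order of zones 1 to 5 by level was the same in both libraries. Zone 1, with 7 hot spots, held 30624 RPM in DMSO and 28066 RPM in PD (26.3% and 26.4% of the member reads). Zone 2, with 5 hot spots, held 16882 RPM in DMSO and 11644 RPM in PD. Zones 4, 3 and 5, each with 2 hot spots, followed at 4812, 4280 and 3455 RPM in DMSO and at 4398, 3851 and 2555 RPM in PD. The PD to DMSO ratio was 0.916 in zone 1, 0.690 in zone 2, 0.8999 in zone 3, 0.914 in zone 4 and 0.740 in zone 5. Zones 2 and 5 were lower in PD under every denominator tried, and zones 1, 3 and 4 were not. Reads that passed nt 1748 mostly differed from the copy there and were then not members. No member read of zone 5 had 28 to 32 nt, so its ratio rests on shorter reads (0.731 at 18 to 24 nt). It is not of the same lengths as in the other zones.

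The single hot spots spread around these zone values. Over all 25 hot spots the ratio was below 1 at 23, with 4 lower and 2 higher by 1.5-fold. In zones 1 to 5 the ratio was below 1 at all 18 hot spots, and at 8 of them under every denominator. It was past 1.5-fold at 3 of them. In zone 2, starts 868, 869 and 870 were lower in PD, with ratios of 0.564, 0.542 and 0.518. Start 870 held 2958 RPM in DMSO and 1531 RPM in PD. Start 863, nearby in zone 2, had a ratio of 0.794 over all its reads. Its most abundant tag, of 28 nt, had a ratio of 1.01 and ends at nt 890. Those of starts 868, 869 and 870 end there too but are of 23, 22 and 21 nt. Start and length thus differ together here and cannot be told apart.

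**Figure D3:**
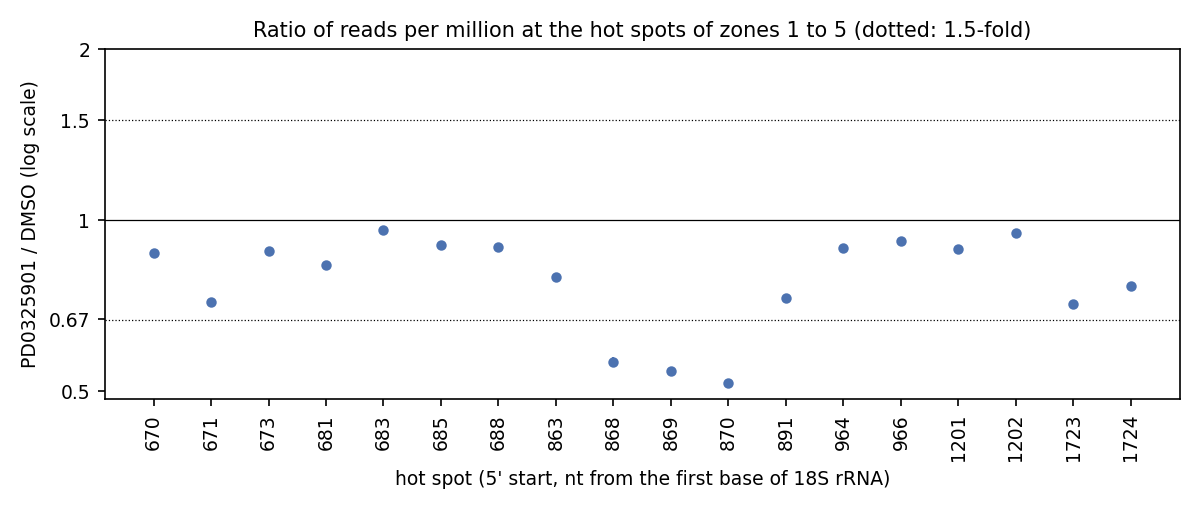
Ratio of PD to DMSO RPM at each of the 18 hot spots of zones 1 to 5, in order along 18S on a log scale, with 95% counting intervals that are smaller than most points. Starts 868, 869 and 870 lie below the lower 1.5-fold line, and no start lies above the upper one.

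The 3′ ends were also concentrated, with 66.4% of the member reads in DMSO and 66.8% in PD at the 23 hot ends. In zones 1 to 5 the most used ends were nt 692 in zone 1 (12152 RPM in DMSO, 12645 RPM in PD) and nt 890 in zone 2 (9892 and 7355 RPM). Ends 1 base apart could differ between the libraries. Reads ending at nt 691 were at 3705 RPM in DMSO and 1514 RPM in PD, a ratio of 0.409, whereas the ratio at nt 692 was 1.04. In zone 2 a hot end, nt 890, was directly followed by a hot start, nt 891. The reads do not show whether the pieces on either side of such a place came from 1 molecule.

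The bases at the fragment ends were uneven. In the 18S stretch, G stood directly before the first base of 55.2% of the reads in DMSO and 56.2% in PD, against 29.7% G among the bases of the stretch. The first base was C in 41.4% and 39.5% of the reads (25.3% of the stretch), and the last base was A in 44.5% and 46.2% (22.9% of the stretch). Counted once per distinct tag, these shares were near those of the stretch, with 31.9% and 31.8% for G before the start, 28.6% in both for C at the start and 24.9% and 24.8% for A at the end. The bias over reads therefore belonged to the abundant positions. Of the 25 hot starts, 14 followed a G and 10 began with C, and of the 23 hot ends 11 were followed by C.

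The 10 most abundant member tags carried 25.6% of the member reads in DMSO and 24.9% in PD. Of these 10, 5 lay in zones 1, 2 and 4, and they are shown with the last base in capitals because some differ only in where they start or end.
tag A, nt 670 to 692: cagttaaaaagctcgtagttggA
tag B, nt 670 to 691: cagttaaaaagctcgtagttgG
tag C, nt 870 to 890: taatggaataggaccgcggtT
tag D, nt 1201 to 1221: aaaggaattgacggaagggcA
tag E, nt 1202 to 1221: aaggaattgacggaagggcA

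Tag A, of 23 nt, was the most abundant member tag in both libraries, with 8803 RPM in DMSO and 9063 RPM in PD. Tag B lacks only its last base and was at 2949 RPM in DMSO and 1212 RPM in PD, so the ratio was 1.03 for tag A and 0.411 for tag B. Tag C was at 2538 RPM in DMSO and 1311 RPM in PD. The levels of tags D and E, which differ by 1 base at the 5′ end, were close in the 2 libraries, at 1842 and 1809 RPM for tag D and 1496 and 1444 RPM for tag E.

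The other hot spots of zones 1 to 5 had their most abundant tag at lower levels. These tags were of 19 to 28 nt. The highest of them in DMSO began at start 964 in zone 3 and was at 1632 RPM in DMSO and 1246 RPM in PD. At start 863 the most abundant tag was of 28 nt, at 1248 RPM in DMSO and 1262 RPM in PD.

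The length of the member reads differed between the libraries. Their median was 22 nt in DMSO and 23 nt in PD. Lengths of 20 to 24 nt accounted for 63.1% of the member reads in DMSO and 54.0% in PD, with a ratio of 0.780. The share of 28 to 32 nt was 6.85% in DMSO (6.81% to 6.88%) and 13.7% in PD (13.6% to 13.7%), at 7971 RPM and 14528 RPM, a ratio of 1.82 (1.81 to 1.83). At exactly 30 nt the level was 1103 RPM in DMSO and 4430 RPM in PD (ratio 4.02), and at 31 nt it was 33.97 RPM in DMSO and 681 RPM in PD (ratio 20.03). The shift was not particular to rRNA, as all other clean reads had 7.15% at 28 to 32 nt in DMSO and 17.3% in PD, a ratio of 2.46. With 1 library each, this difference in length over the whole of both libraries cannot be told apart from the treatment.

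**Figure D4:**
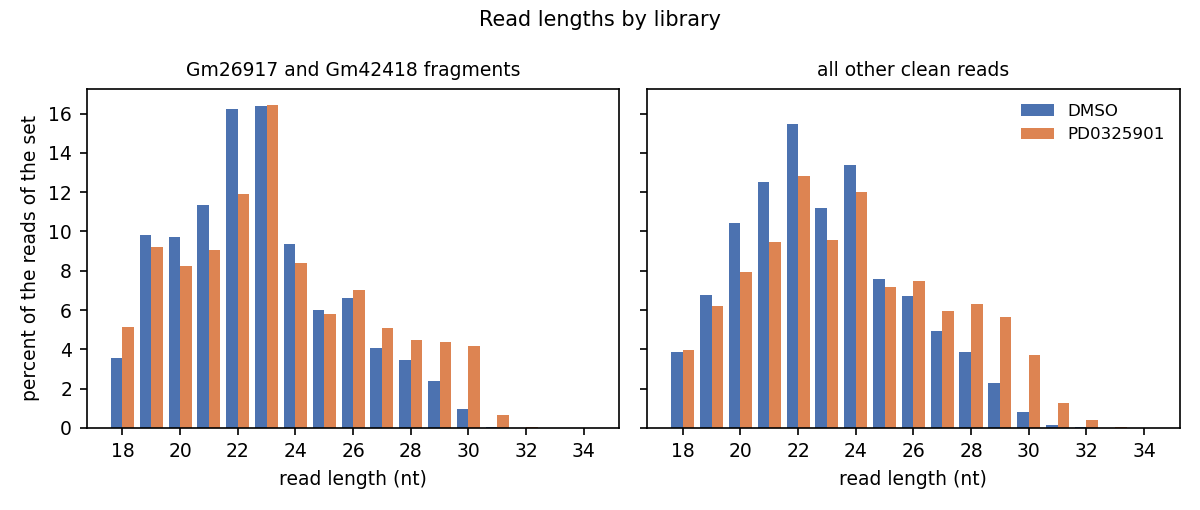
Percent of reads by length from 18 to 34 nt, for the Gm26917 and Gm42418 fragments and for all other clean reads, in the DMSO and PD libraries. In both sets the PD bars are the taller ones from 28 nt upwards, and among the fragments the DMSO bar at 22 nt (16.3%) exceeds the PD bar (11.9%).

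The zones differed in their share of longer reads. In zone 2 the share of 28 to 32 nt was 8.69% in DMSO and 13.9% in PD, in zone 1 2.12% and 4.86%, and in zone 3 2.23% and 5.70%. Zone 4 held only 3 such reads in DMSO and 21 in PD, and zone 5 none in either. A read of 28 nt from the starts of zone 5 must cross nt 1748. There 85.8% of the reads in DMSO and 89.8% in PD carried T in place of the A of the 18S copy. Such reads were not members. They numbered 272 in DMSO and 324 in PD over all starts and lengths, against 45 and 37 perfect reads. Zone 5 held 65201 and 53520 member reads in all. How far the demand for a perfect match set the lack of longer reads in zone 5 was not tested. Within each of zones 1 to 5, reads of 18 to 24 nt were lower in PD per clean read, with ratios from 0.628 in zone 2 to 0.912 in zone 4, while reads of 28 to 32 nt had ratios of 2.10 in zone 1, 1.103 in zone 2 and 2.30 in zone 3. Of these values for shorter reads, those of zones 1, 3 and 4 lay within the range in which the denominator sets the direction.

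Tag by tag, 993 of the 13400 member tags reached 10 RPM in either library, and they carried 94.0% of the member reads in DMSO and 93.4% in PD. Of these, 170 (17.1%) were higher in PD by 1.5-fold or more, and the same was true of 16.7% of all 8507 tags of the series at that level. Lower by 1.5-fold or more were 258 (26.0%), against 24.0% of all tags. Both shares were near those of all tags, so the fragments as a set did not stand apart. The median ratio was 0.859 for the member tags (log2 -0.22) and 0.883 for all tags (log2 -0.18). The split of higher and lower tags depended on the denominator, at 205 and 184 with TMM, 207 and 177 with the size factors of DESeq2, 217 and 156 per miRNA hairpin read and 246 and 129 per read of 20 to 24 nt. The shares over all tags are not given for these denominators. Over the 3281 member tags with at least 10 reads in both libraries, the levels had a Pearson correlation of 0.942 on the log2 scale, as a description of tags that overlap one another and share their gene.

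Length sorted these tags in the same way as the reads. Of the 121 tags of 28 to 32 nt, 88 were higher by 1.5-fold and 2 lower, with a median ratio of 2.16. Among the 654 tags of 18 to 24 nt, 56 were higher and 222 lower, with a median ratio of 0.762. The 218 tags of 25 to 27 nt lay between, with 26 higher, 34 lower and a median ratio of 0.989. Among all tags of the series, 72.9% of those of 28 to 32 nt were higher and 1.30% lower, 9.10% of those of 18 to 24 nt were higher and 30.5% lower, and 12.4% of those of 25 to 27 nt were higher and 11.7% lower. The shares of the member tags were 72.7% and 1.65%, 8.56% and 33.9%, and 11.9% and 15.6% in the same order. The medians of all tags were 2.05, 0.805 and 0.986.

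**Figure D5:**
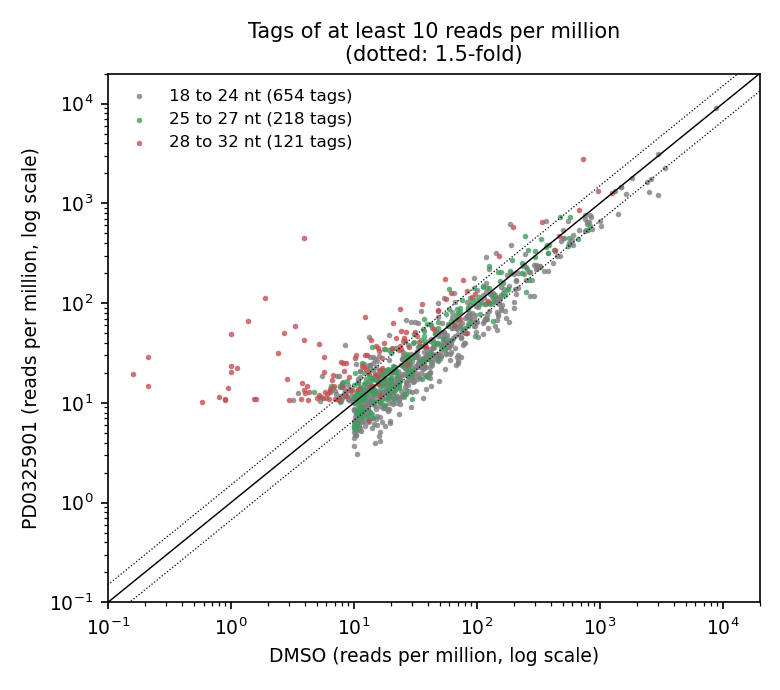
Level in PD against level in DMSO for the 993 member tags of at least 10 RPM in either library, both axes on a log scale, coloured by length. The tags far above the upper 1.5-fold line are mostly of 28 to 32 nt, and most tags below the lower line are of 18 to 24 nt.

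The 5 largest ratios in either direction, picked for their values, lay at different lengths. They are shown, with the last base in capitals, because each of the 3 higher tags in or next to zones 1 and 2 shares its start or its 3′ end with a hot position above and the lower ones are short.
higher 1, nt 670 to 699: cagttaaaaagctcgtagttggatcttggG
higher 2, nt 678 to 708: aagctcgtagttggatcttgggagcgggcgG
higher 3, nt 861 to 890: agctaggaataatggaataggaccgcggtT
lower 1, nt 1027 to 1045: attaatcaagaacgaaagT
lower 2, nt 886 to 907: cggttctattttgttggttttC
lower 3, nt 792 to 811: cggggcccgaagcgtttacT
lower 4, nt 1026 to 1045: cattaatcaagaacgaaagT
lower 5, nt 1200 to 1218: taaaggaattgacggaagG

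All 5 tags that were higher had 30 or 31 nt and few reads in DMSO. They reached 10 RPM in PD only and were picked for their ratio, so the few reads in DMSO follow from the choice. The counting intervals given here do not allow for this choice. Of those shown, the first had 3 reads in DMSO and 407 in PD (ratio 122, 41.5 to 595), and the second had 4 and 310 (ratio 69.8, 26.998 to 258). The third, which ends at nt 890 like the hot tags of zone 2, had 36 and 2354 reads, or 1.91 and 112 RPM (ratio 58.9, 42.4 to 84.3). The 5 tags that were lower had 19 to 22 nt and were at 10.7 to 36.7 RPM in DMSO and 3.06 to 11.3 RPM in PD, with ratios from 0.2499 to 0.309. All but the last of these reached 10 RPM in DMSO only. Lower tags 1 and 4 end at the same base and overlap all but 1 base.

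Between the zones, member reads were sparser. Starts outside the zones held 30433 RPM in DMSO and 30044 RPM in PD, a ratio of 0.987. One stretch went the other way from most of the 18S reads. In 4 neighbouring windows of 100 nt, from start 1206 to 1605 (39847558 to 39847957 on chromosome 17), chosen after their values were seen, the ratio was 1.24 to 1.67 per window and 1.39 in all (1.38 to 1.40), at 4415 RPM in DMSO and 6144 RPM in PD. Lengths of 28 to 32 nt accounted for 7.40% of that stretch in DMSO and 13.6% in PD, shares near those of all member reads, and its reads of 18 to 24 nt alone were also higher in PD, at 3090 RPM in DMSO and 3853 RPM in PD (ratio 1.25, 1.23 to 1.26).

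Gm26917, the spacer stretch upstream of 18S, held 9538 reads in DMSO and 9984 in PD, or 505 and 477 RPM, spread over 3658 tags. None of its tags reached 10 RPM in either library and none of its positions was a hot spot. In windows of 100 nt it was highest from position 2001 to 2100 of the transcript, with 74.5 RPM in DMSO and 69.7 RPM in PD. Of its 34 windows, 22 had at least 100 reads in both libraries, and 1 of these was past 1.5-fold, being lower in PD. The share of 28 to 32 nt was 5.54% in DMSO and 11.0% in PD. Its 4 most abundant tags, picked after their values were seen, are shown to give a sense of this GC-rich spacer, and they lie at 39845887 to 39845907, 39844131 to 39844149, 39843047 to 39843066 and 39844362 to 39844390.
Gm26917 tag 1: ccggtggtggtcgttggtgtg
Gm26917 tag 2: gtggtggctggggagaggg
Gm26917 tag 3: ccaggcgagggacggacatt
Gm26917 tag 4: tgtgcttctcgggctgtgtggttgtgtcg

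The first had 140 reads in DMSO and 167 in PD, the second 171 and 99, and the third 134 and 100. The fourth, the longest at 29 nt, had 42 reads in DMSO and 194 in PD, or 2.23 and 9.26 RPM, and was the most abundant of the 4 in PD. It lies in the window from position 1301 to 1400 of the transcript, which was at 20.8 RPM in DMSO and 30.3 RPM in PD (ratio 1.46). The base composition of Gm26917 was 33.97% C and 35.1% G, and only 8.26% A.

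At the 3′ end of 18S the reads stopped sharply. The sequence around this end, at 39848182 to 39848221, is shown with the bases past 18S in capitals.
3′ end of 18S: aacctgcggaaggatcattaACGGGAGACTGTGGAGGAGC

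Reads that ended exactly at the last base of 18S numbered 6941 in DMSO and 4059 in PD, whereas 333 and 300 reads ran across the junction and 958 and 885 reads began at the first base after it. A precursor that is not yet cut would give reads across the junction, and the mature end gives reads that stop there. The reads beyond 18S amounted to 6751 in DMSO and 5303 in PD, or 358 and 253 RPM. Of the 8 tags of this stretch with at least 10 RPM in either library, 5 were lower in PD by 1.5-fold and none higher, against 24.0% lower and 16.7% higher among all tags of the series. The most abundant of the 8 were of 19 to 23 nt, and some overlap one another. Among all tags of 18 to 24 nt, 30.5% were lower and 9.10% higher. The most abundant was a tag of 21 nt at 39848210 to 39848230, with 40.3 RPM in DMSO and 19.6 RPM in PD, and the next began 2 bases later and was at 38.8 RPM in DMSO and 13.7 RPM in PD.
after 18S tag 1: ctgtggaggagcggcggcgtg
after 18S tag 2: gtggaggagcggcggcgtg

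The annotated genes cover only part of the rRNA in these libraries. The first 605 nt of 18S, read from the annotated copy, held 569093 reads in DMSO and 465288 in PD, or 30158 and 22215 RPM, a ratio of 0.737 (0.734 to 0.739). Of these reads, 53673 in DMSO and 43707 in PD ran across the base where Gm42418 begins, so that boundary is one of annotation. Per kilobase this first part stood at 49848 RPM in DMSO and 36719 RPM in PD, below the 92889 and 84710 RPM of the 18S stretch of Gm42418. Fragments of 5S rRNA were at 1566 RPM in DMSO and 1369 RPM in PD (ratio 0.874), and the annotated 5.8S sequences had 31 reads in DMSO and 26 in PD. The mitochondrial rRNAs were at 151 and 136 RPM for mt-Rnr1 and 211 and 220 RPM for mt-Rnr2, or 158 and 142 RPM per kilobase for mt-Rnr1. The share of 28 to 32 nt was higher in PD in each of these but 5.8S, which had none, at 4.09% and 7.17% in the first part of 18S, 4.11% and 8.06% in 5S, 4.26% and 7.97% in mt-Rnr1 and 9.54% and 19.9% in mt-Rnr2.

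The demand for a perfect match left out some reads of the same RNA. Tags with a single internal mismatch to the 2 genes held 258264 reads in DMSO and 213368 in PD, equal to 11.8% and 9.60% of the perfectly matching reads. Of these reads 93.4% in DMSO and 91.8% in PD carried 1 of 11 substitutions that more than 50% of the reads at that base had in both libraries. Some of the 11 lie in Gm26917 and the others in the 18S stretch. RefSeq lists this 18S copy as a pseudogene, and at the latter bases the reads differ from it. Substitutions in 18S are written with the base of the copy, its position in 18S and the base of the reads. T1051G was in 168285 reads in DMSO and 132565 in PD, against 55 and 43 reads that matched the copy there. A1106G was in 45885 and 39570 reads and T1074C in 13125 and 10174. The most abundant tag at each of these 3 bases is shown with the substituted base in capitals.
T1051G, from nt 1041: aaagtcggagGttcgaagacg
A1106G, from nt 1097: ccgactggcGatgcggcggcgtt
T1074C, from nt 1062: atcagataccgtCgtagttcc

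With 1 internal mismatch allowed, 2 further starts passed the 1% threshold, both of tags with T1051G, and 3 of the 25 no longer did, so that 24 passed in all. Start 1041 was at 3142 RPM in DMSO and 2527 RPM in PD (ratio 0.804), of which 13 and 14 reads were perfect matches, and start 1034 was at 1338 RPM in DMSO and 698 RPM in PD (ratio 0.522). Perfect matching therefore hid 1 more hot region of 18S. Reads that matched only after their last base was removed were few, at 22362 in DMSO and 21708 in PD (1.018% and 0.977% of the member reads). That base was G in 41.8% and 36.7% of them, T in 31.1% and 36.6%, A in 25.03% and 24.7% and C in 2.02% and 2.07%.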

How the data were processed

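The authors pooled RNA of each treatment, purified RNA of 18 to 30 nt on a gel, ligated adapters and deposited, per library, the length, read count and sequence of each clean tag. These deposited counts are raw and carry no molecular identifiers. The labels name a TruSeq RNA kit instead, and the submitters' processing notes name the mouse build mm9. Coordinates of that build were not used here, and those given are from GENCODE M21 (GRCm38). The last line of each file, a total without a tag, was left out.

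Tags of 18 to 44 nt were matched with Python 3.11.15 to the sense strand of the transcripts. Levels are RPM of all clean reads, and 0.01 RPM stood in for 0 in a ratio. Intervals are 95% Wilson intervals of a share and Clopper-Pearson intervals of a ratio. The functions were tested on simulated data. A hot spot held at least 1% of the member reads. Named were all hot spots and the most abundant tag of each, the 10 most abundant tags, and the 5 largest rises and falls among tags of at least 10 RPM, where 1.5-fold counted as a change, with the other annotated rRNA genes beside them. The single positions and tags of the sixth zone are not reported here. The members, thresholds and alternatives were chosen with earlier results of these data known. edgeR 4.0.16 and DESeq2 1.42.0 gave alternative scalings only, from tags with at least 10 reads in both libraries. No test was run, as each treatment had 1 library.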

Additional observations from a re-analysis of the deposited data

How the results depend on the processing

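No paired analysis was possible because each treatment had 1 library, and leaving out a replicate was not possible for the same reason. The ratio of all member reads, 0.911, was 0.9009 per non-member read, 1.006 with TMM, 1.012 with the size factors of DESeq2, 1.045 per miRNA hairpin read and 1.104 per read of 20 to 24 nt. The 170 higher and 258 lower of 993 tags became 98 and 86 at 2-fold and 26 and 47 of 205 tags at 100 RPM. They were 560 and 792 of 3281 tags with at least 10 reads in both libraries. With no filter on low levels they were 5011 and 4611 of 13400. That last pair counts every tag absent from 1 library as changed, since 0.01 RPM stood in for 0. Lower tags numbered 156 per miRNA hairpin read and 129 per read of 20 to 24 nt. Shares over all tags of the series are given for the main setting only, so these counts are not read as a result about the fragments. The hot spot shares, 64.4% in DMSO and 62.2% in PD, were 66.42% and 66.85% for 3′ ends, 48.19% and 48.14% for the 13 starts with at least 2% of the reads, and 64.11% and 61.9% with tags that matched without their last base. The share of 28 to 32 nt was 13.53% in DMSO and 18.16% in PD over distinct tags. Alternatives chosen after seeing the data were to allow 1 internal mismatch and to add the first 605 nt of 18S. The first gave a ratio of 0.8939, hot spot shares of 58.68% and 57.62% and 28 to 32 nt shares of 6.711% and 13.26%. The second gave 0.8755, 50.84% and 50.33%, and 6.28% and 12.56%, with 434 lower tags. The cause was not tested where the alternative itself does not give it. Leaving out the 6 tags found in other transcripts, adding hairpin matches (there were none) and thinning the PD library to the depth of DMSO kept every value within its interval or 1.5 times its count.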

Other observations

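Tags that matched the opposite strand of the 2 genes numbered 143, with 77 reads in DMSO and 107 in PD. Nearly all reads that matched the 2 genes on either strand were thus of the sense strand of rRNA. Beside the 11 substitutions present in most reads, 17 others had at least 100 reads in both libraries and all of them were in under 1% of the reads at their base. By reads the largest of these were A675T, with 1509 reads in DMSO and 1267 in PD, or 0.440% and 0.374% of the reads at that base, and C984T, with 1185 and 1324 reads, or 0.735% in both. By share the largest was A1038T, in 0.885% of the reads at that base in DMSO and 0.951% in PD. Starts 1723 and 1724, both in zone 5, had no member read of 28 to 32 nt in either library. Reads of that length there cross nt 1748, where most reads differed from the copy and so were not members. Whether this accounts for their absence was not tested.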
